A study of Mus musculus with 4 samples.

Results

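The Spink, Spint and Wfdc genes encode families of small secreted or membrane-bound proteins, many of them inhibitors of serine proteases. All are called inhibitor genes here by family, and inhibition was not measured. Their members were taken as every gene whose symbol is Spink, Spint or Wfdc followed by a number, without a filter on level. They came to 35 of the 18820 genes measured: 12 Spink genes, 5 Spint genes and 18 Wfdc genes, each read by 1 probe set. Epididymal adipose tissue lies against the epididymis in male mice, and its RNA was read on 4 whole-transcript gene arrays. Of these, 2 held CD1d-/- mice fed the low-fat diet (KO array 1 and KO array 2, written KO1 and KO2). The wild type high-fat (WT-HF) and wild type low-fat (WT-LF) groups had 1 array each. Fat made up 45 kcal% of the high-fat and 10 kcal% of the low-fat feed. All groups were of strain C57BL/6, the null allele having been backcrossed for 10 to 12 generations. Feeding began at 10 to 11 weeks of age and lasted 18 to 19 weeks, and RNA of 4 to 6 mice was pooled per group. Whether KO1 and KO2 came from separate pools is not stated, so the p-values rest on array-to-array spread that may be technical. CD1d, which shows lipid antigens to natural killer T cells, was missing from every cell type of the KO mice.

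Each family is named for the fold of its domain. Spint proteins carry Kunitz domains, Spink proteins Kazal domains and Wfdc proteins whey acidic protein (WAP) domains. In those that inhibit, disulfide bonds hold an exposed loop that plugs the active site of a target such as trypsin, matriptase or elastase. In rodents many members are made by the epididymis, the duct in which sperm mature, where inhibitors coat sperm and protect them from proteases and microbes. Other members serve skin, gut, pancreas or immune cells.

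Levels are log2 intensities as normalised by the authors, and every difference is a log2 value except where a fold is named. Cd1d1, the gene disrupted in KO mice, was at 3.74 and 3.98 on KO1 and KO2, against 11.80 on the WT-HF array and 11.80 on the WT-LF array. limma put its difference from the WT-LF array at −7.95 (SE 0.32, adjusted p = 0.00646, or 0.0931 without the filter on low levels). The array medians over 35556 probe sets lay between 5.68 and 5.71. A gene was described as above the median where its level exceeded that of its own array. A fold that involves a level under the median rests on low signal, and its size is uncertain. The number of arrays limits the precision, and neither wild type array has a replicate. All 14 measured adipocyte markers were above the median on each array, and their summed intensity was 103395 and 106444 on KO1 and KO2, 105671 on the WT-HF array and 103202 on the WT-LF array. Singly, 2 of the 14 were at least 1.5-fold higher on the WT-HF than on the WT-LF array and 0 lower. On KO2, 1 was higher than on KO1 and 0 lower.

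On the WT-LF array 20 of the 35 inhibitor genes were above the median, more than on any other array. The count was 10 on KO1, 15 on KO2 and 6 on the WT-HF array. Over all genes the share above the median was 56.7% on KO1, 56.9% on KO2, 57.4% on the WT-HF array and 57.3% on the WT-LF array. The summed intensity of the 35 genes was 6915 and 6427 on KO1 and KO2 and 2879 on the WT-HF array, against 14033 on the WT-LF array. A few high genes weigh most in these sums, and they differ by array. The highest member was Spink8 on KO1 (11.68), Wfdc17 on KO2 (11.25) and the WT-HF array (10.79), and Spint4 on the WT-LF array (11.35). The 15 genes under the median on every array were Spink1, Spink4, Spink5, Spink6, Spink7, Spink10, Spink13, Spink14, Wfdc2, Wfdc3, Wfdc5, Wfdc6b, Wfdc12, Wfdc15a and Wfdc18, at levels between 2.95 and 5.51. They include Spink1, the trypsin inhibitor of pancreatic acinar cells, Spink5, an inhibitor of skin kallikreins, and Wfdc2, known in humans as HE4 and first found in the epididymis.

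**Figure D1:**
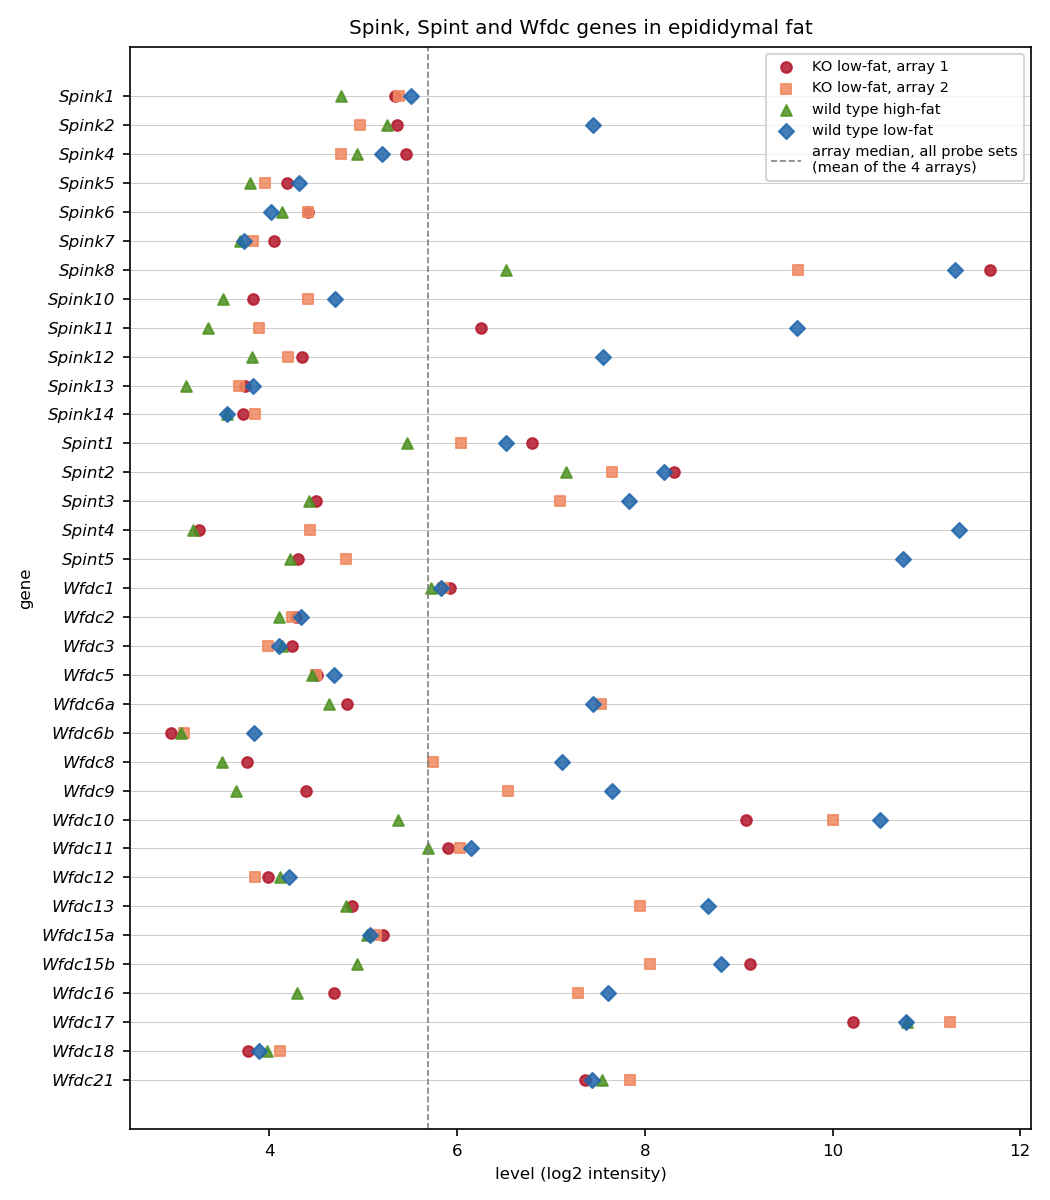
Level (log2 intensity, horizontal axis) of each of the 35 genes on each array: KO1 and KO2, WT-HF and WT-LF. One point is 1 array, and the dashed line is the mean of the 4 array medians. Spint4 and Spint5 lie right of the line on the WT-LF array alone, and Wfdc17 lies right of it on all arrays.

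The remaining 20 genes fell into 5 sets by the arrays on which they were above the median, a grouping made after the values were seen and given without a test. Spint4, Spint5, Spink2 and Spink12 were above it on the WT-LF array alone. Spink11 was above it there and on KO1. Spint3, Wfdc6a, Wfdc8, Wfdc9, Wfdc13 and Wfdc16 were above it on the WT-LF array and KO2. Spint1, Wfdc10 and Wfdc15b were above it on all arrays but the high-fat one. Spink8, Spint2, Wfdc1, Wfdc11, Wfdc17 and Wfdc21 were above it on all 4. Wfdc8 on KO2, at 5.74, and Wfdc11 on the WT-HF array, at 5.69, were close to the line.

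The first comparison asks how fat without CD1d differed from wild type fat on the low-fat diet. Among the 35 genes, 10 were at least 1.5-fold lower on both KO arrays and 0 were higher on both. Over all 18820 genes, 0.675% were lower and 0.850% higher by that count. The 10 were Spint3, Spint4, Spint5, Spink2, Spink11, Spink12, Wfdc6b, Wfdc8, Wfdc9 and Wfdc13, and for Wfdc6b, at 2.95 and 3.09 on the KO arrays against 3.84 on the WT-LF array, all levels were under the median. Taken singly against the WT-LF array, KO1 had 14 lower genes, beside 3.51% of all genes, and KO2 had 12, beside 3.44%. Neither had a member that was higher, beside 3.38% of all genes on KO1 and 4.43% on KO2. The median difference of the 35 genes was −0.18 on KO1 and −0.36 on KO2, and that of all genes was −0.07 and −0.01. In bulk tissue, fewer cells of a type and less RNA per cell cannot be told apart.

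Of the Kunitz genes, Spint4 and Spint5, neighbours in the epididymal inhibitor cluster of chromosome 2, were high on the WT-LF array alone, and their limma call against the KO arrays depended on the filter on low levels. The call of Spint4 depended on the normalisation and the probe set rule as well. Spint4 was at 3.25 and 4.43 on KO1 and KO2, against 11.35 on the WT-LF array. Its difference was −7.51 (SE 0.53, adjusted p = 0.0292) in limma. Both KO levels were under the array median, as was the WT-HF level of 3.19, and the only wild type low-fat value was far above it. Spint5 was at 4.31 and 4.82 on KO1 and KO2, against 10.75 on the WT-LF array, with a difference of −6.18 (SE 0.36, adjusted p = 0.0193) in limma. The test covered 11292 genes with a mean level of at least 5.45, 18 of the 35 inhibitors among them, and called 0 genes higher and 5 lower, or 0.0443% of those tested. At an unadjusted p under 0.05 it had 41 genes higher and 51 lower, with 0 and 5 inhibitors among them. Those 5 inhibitors were Spink2, Spink11, Spint4, Spint5 and Wfdc9. Each passed the filter only through its high level on the WT-LF array, so this split is no separate support for a direction. Spint4 and Spint5 were the inhibitors among the 5 genes past the adjusted threshold, and the WT-LF array was the 1 array on which they were high. Without the filter limma called 0 genes, with adjusted p = 0.402 for Spint4 and 0.276 for Spint5. Over the alternatives the adjusted p ran between 0.00736 and 0.402 for Spint4 and between 0.00491 and 0.276 for Spint5. With the filter kept, the limma adjusted p of Spint4 was 0.0526 after quantile normalisation and 0.0722 with probe sets averaged. For Spint5 it was 0.035 and 0.0431. The wild type spread was not measured and is taken from the KO pair.

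The third Kunitz gene of the cluster, Spint3, split the KO arrays. It was at 4.50 and 7.10 on KO1 and KO2, against 7.83 on the WT-LF array, so KO2 was 1.65-fold lower and KO1 was 10.0-fold lower. limma gave a difference of −2.03 (SE 0.998, adjusted p = 1), and Spint3 passed the filter only through the WT-LF array. Spint1 and Spint2, the membrane inhibitors HAI-1 and HAI-2 that restrain matriptase and the activator of hepatocyte growth factor, were not 1.5-fold apart from the WT-LF array on either KO array. Spint1 was at 6.80 and 6.04 on KO1 and KO2, against 6.52 on the WT-LF array. Spint2 was at 8.31 and 7.65, against 8.20 there. For both genes the KO values lay on either side of the wild type low-fat value.

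The bases before the start sites are shown for the Kunitz genes high on the WT-LF array alone, for Spint3, which split the KO arrays, and for 3 Wfdc genes with other patterns described below. They come from RefSeq on build GRCm38.p6, where 20 of the 35 genes had an entry, and each run holds the 250 bases before the start, 5′ to 3′ on the strand of the gene. They lie at chr2:164698251-164698500 (+ strand) for Spint4, chr2:164715055-164715304 (+) for Spint5, chr2:164573457-164573706 (−) for Spint3, chr2:164655796-164656045 (+) for Wfdc10, chr2:164221664-164221913 (−) for Wfdc15b and chr11:83703806-83704055 (+) for Wfdc17. Capitals mark matches on either strand to 4 motifs picked after the data were seen. The androgen receptor half-site was searched as TGTTCT. The core promoter box bound by TBP was taken as TATAAA. The CCAAT box was searched as named. Of the PEA3/ETS core, the letters looked for were AGGAAG.
Spint4: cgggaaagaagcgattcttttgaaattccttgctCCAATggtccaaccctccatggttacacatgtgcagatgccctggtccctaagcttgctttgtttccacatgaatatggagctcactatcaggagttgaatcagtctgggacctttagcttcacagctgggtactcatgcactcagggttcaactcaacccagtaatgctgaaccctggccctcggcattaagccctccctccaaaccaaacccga
Spint5: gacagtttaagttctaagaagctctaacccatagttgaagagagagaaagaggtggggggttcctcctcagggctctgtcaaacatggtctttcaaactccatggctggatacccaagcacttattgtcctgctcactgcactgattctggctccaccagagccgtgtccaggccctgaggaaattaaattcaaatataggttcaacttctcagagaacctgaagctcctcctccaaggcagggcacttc
Spint3: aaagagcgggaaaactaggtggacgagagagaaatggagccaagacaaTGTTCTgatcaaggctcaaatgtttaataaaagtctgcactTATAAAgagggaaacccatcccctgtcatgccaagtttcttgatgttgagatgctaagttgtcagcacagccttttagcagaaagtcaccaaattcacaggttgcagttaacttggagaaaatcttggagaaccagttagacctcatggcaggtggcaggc
Wfdc10: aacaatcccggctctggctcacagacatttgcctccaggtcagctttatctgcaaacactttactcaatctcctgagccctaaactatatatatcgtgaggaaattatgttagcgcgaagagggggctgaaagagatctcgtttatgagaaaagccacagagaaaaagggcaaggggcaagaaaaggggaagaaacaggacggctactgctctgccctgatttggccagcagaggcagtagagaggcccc
Wfdc15b: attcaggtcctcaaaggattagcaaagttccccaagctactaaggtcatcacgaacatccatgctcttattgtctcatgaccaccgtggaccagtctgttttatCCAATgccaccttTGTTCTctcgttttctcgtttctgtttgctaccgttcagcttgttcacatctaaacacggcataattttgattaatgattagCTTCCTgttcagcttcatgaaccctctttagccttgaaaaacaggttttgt
Wfdc17: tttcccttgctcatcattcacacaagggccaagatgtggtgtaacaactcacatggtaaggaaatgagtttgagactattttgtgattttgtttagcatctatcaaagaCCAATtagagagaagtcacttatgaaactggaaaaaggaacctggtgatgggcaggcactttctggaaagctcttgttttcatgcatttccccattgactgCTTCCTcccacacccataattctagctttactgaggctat

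No motif contains another in its letters, and Spint5 and Wfdc10 held no match. At the first listed start the androgen half-site was in 3 of 20 members (Spint3, Wfdc11 and Wfdc15b), or 15.0%, and in 16.1% of all 32851 promoters of the table. The TATA box letters were in 3 of 20 (Spint3, Wfdc8 and Wfdc18), or 15.0%, and in 12.4% of all promoters. Relative to the start, the match began at −161 in Spint3, −246 in Wfdc8 and −31 in Wfdc18. The search took no account of position. For the CCAAT box the count was 4 of 20 (Spint4, Wfdc9, Wfdc15b and Wfdc17), or 20.0%, against 33.8% of all promoters. For the PEA3/ETS core it was 7 of 20, or 35.0%, against 29.5%. Spint4 and Spint5 shared none of the 4 motifs in these windows.

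The Kazal genes above the median on any array were 4 of 12: Spink2, Spink8, Spink11 and Spink12. Spink2, which encodes an inhibitor of the sperm protease acrosin, was at 5.36 and 4.97 on KO1 and KO2, against 7.45 on the WT-LF array. limma gave a difference of −2.28 (SE 0.34, adjusted p = 0.954), and Spink2 passed the filter only through the WT-LF array. Spink12, a Kazal gene of the mouse epididymis, was at 4.35 and 4.20 on KO1 and KO2, against 7.56 on the WT-LF array. Its mean level was under the filter, and without the filter its adjusted p in limma was 0.352. Both genes were low on both KO arrays. Spink2 did not pass the test, and Spink12 was not among the genes tested with the filter.

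Spink11, another epididymal Kazal gene, was at 6.25 and 3.89 on KO1 and KO2, against 9.62 on the WT-LF array. The KO arrays were thus 10.4-fold and 53.4-fold lower, and limma gave −4.56 (SE 0.92, adjusted p = 1). Spink11 too passed the filter only through the WT-LF array. Spink8, likewise epididymal in the mouse, showed no shared direction: it was at 11.68 and 9.63 on KO1 and KO2, against 11.30 on the WT-LF array. The other 8 Kazal genes were under the median throughout, and Spink6, at 4.41 and 4.41 against 4.02, had the highest KO mean relative to the WT-LF array, a difference of 0.40.

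Of the 18 WAP genes, 4 were at least 1.5-fold lower on both KO arrays, namely Wfdc6b, Wfdc8, Wfdc9 and Wfdc13, and none of the 10 tested passed limma. Wfdc13 was at 4.88 and 7.95 on KO1 and KO2, against 8.67 on the WT-LF array. Wfdc9 was at 4.39 and 6.54, against 7.65 there, with a difference of −2.19 (SE 0.85, adjusted p = 1) in limma. It passed the filter only through the WT-LF array. Wfdc8 was at 3.76 and 5.74, against 7.12 there. In each of these genes KO1 was low and KO2 lay between it and the WT-LF array.

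Among the low-fat arrays, Wfdc6a and Wfdc16 were low on KO1 alone. Wfdc6a was at 4.83 and 7.53 on KO1 and KO2, against 7.45 on the WT-LF array, and Wfdc16 was at 4.69 and 7.29, against 7.61. Wfdc10 was high on all arrays of the low-fat diet, at 9.08 and 10.00 on KO1 and KO2, against 10.51 on the WT-LF array. Wfdc15b, the mouse antibacterial inhibitor SWAM1 of kidney and epididymis, was at 9.12 and 8.06, against 8.81. In limma none of these 4 had an adjusted p under 1.

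**Figure D2:**
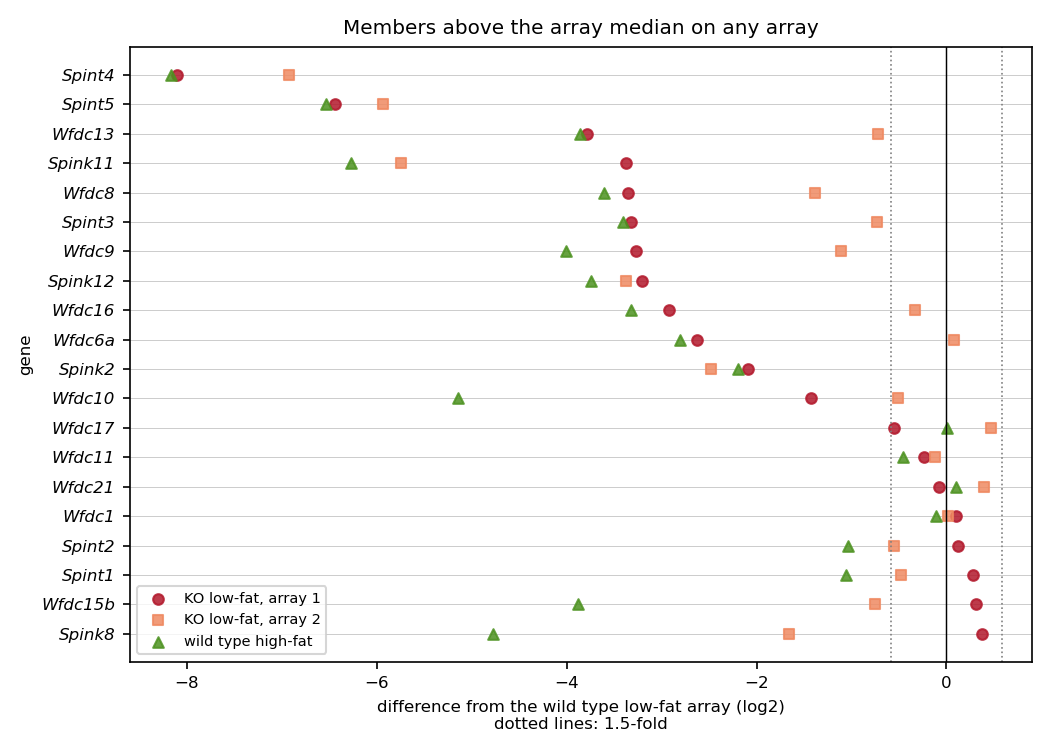
Difference of each array from the WT-LF array (log2, horizontal axis) for the 20 genes above the median on any array, with KO1 and KO2 and the WT-HF array as points and dotted lines at 1.5-fold. All points are set against the same single array. Spint4 lies at −8.10 and −6.92 on the KO arrays and −8.17 on the WT-HF array, while Wfdc6a lies at −2.63 and 0.08 on the KO arrays.

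The second comparison asks how wild type fat differed between the diets. It rests on 1 array a group and on the same WT-LF array as the KO comparison, so it is given by size without a test. Of the 35 genes, 20 were at least 1.5-fold lower on the WT-HF array and 0 were higher, beside 3.13% lower and 5.38% higher of all genes. By family the lower genes were 7 of 12 Spink, 5 of 5 Spint and 8 of 18 Wfdc. The median difference of the 35 genes was −0.79, and that of all genes was 0.01. At 2-fold 17 of the 35 were lower and 0 higher, beside 219 and 306 of all 18820 genes.

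All 5 Kunitz genes were lower on the WT-HF array. Spint4 was at 3.19 on the WT-HF and 11.35 on the WT-LF array, and Spint5 at 4.22 and 10.75. Spint3 was at 4.42 on the WT-HF array, 10.6-fold below the WT-LF array. The membrane inhibitors differed less, with Spint1 at 5.47 on the WT-HF and 6.52 on the WT-LF array and Spint2 at 7.16 and 8.20, folds of 2.08 and 2.05.

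Spink8, Wfdc10 and Wfdc15b, above the median on all 3 arrays of the low-fat diet, were far lower on the WT-HF array. Spink8 was at 6.52 on the WT-HF and 11.30 on the WT-LF array, a 27.5-fold lower intensity. Wfdc10 was at 5.37 and 10.51, and Wfdc15b at 4.93 and 8.81. On the WT-HF array Wfdc10 and Wfdc15b were under the median, and Spink8 was above it.

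Further genes lower on the WT-HF array were Spink11 (77.2-fold), Wfdc9 (16.1-fold), Wfdc13 (14.5-fold), Spink12 (13.4-fold) and Wfdc8 (12.2-fold). Wfdc16 was 10.0-fold, Wfdc6a 7.03-fold and Spink2 4.59-fold lower. Spink1, Spink10, Spink13 and Wfdc6b were lower too, by 1.64-fold to 2.27-fold, with all their levels under the median. Spink13, whose rat counterpart takes part in sperm maturation, was at 3.11 on the WT-HF and 3.83 on the WT-LF array.

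A few members were level across the diets. Wfdc17, also called AMWAP, a WAP gene of activated macrophages and microglia, was at 10.79 on the WT-HF and 10.78 on the WT-LF array. Wfdc21, described in mice as the secreted adipocyte protein Wdnm1-like, was at 7.54 and 7.44. Wfdc1, the stromal growth inhibitor ps20, was at 5.72 and 5.83, just above the median on both.

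The KO arrays, nominally of 1 genotype and 1 diet, were far apart in these genes. On KO2, 9 inhibitors were 1.5-fold or more higher than on KO1, beside 9.69% of all genes, and 6 were lower, beside 4.00%. The higher genes were Spint3, Spint4, Wfdc6a, Wfdc8, Wfdc9, Wfdc10, Wfdc13, Wfdc16 and Wfdc17, and the lower ones Spink4, Spink8, Spink11, Spint1, Spint2 and Wfdc15b. Wfdc13 was 8.38-fold, Wfdc6a 6.53-fold, Spint3 6.06-fold and Wfdc16 6.04-fold higher on KO2. In the other direction Spink11 was 5.14-fold, Spink8 4.13-fold and Wfdc15b 2.09-fold lower. This pair supplies the spread of the test, and the SD of the pair was 2.17 for Wfdc13, 1.91 for Wfdc6a and 0.36 for Spint5 (n = 2).

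KO arrays were also set against the WT-HF array, from which they differ in genotype and diet. No KO fat from high-fat feeding was analysed here, and whether diet acted differently by genotype was not tested. There 4 of the 35 genes, Spink8, Wfdc9, Wfdc10 and Wfdc15b, exceeded it by 1.5-fold or more on both KO arrays, beside 1.24% of all genes, and 0 were lower, beside 0.680%. Wfdc10 had a KO mean of 9.54 ± 0.65 (SD, n = 2) against 5.37 on the WT-HF array, a difference of 4.17 (SE 0.45, adjusted p = 0.385) in limma. Wfdc15b had a KO mean of 8.59 ± 0.75 (SD, n = 2) against 4.93, a difference of 3.66 (SE 0.49, adjusted p = 0.684) in limma. For Spink8 the difference was 4.14 (SE 0.81, adjusted p = 0.999) in limma. Among the 11292 genes tested limma called 0 higher and 1 lower, or 0.00886%, and that 1 was Cd1d1. At an unadjusted p under 0.05, 86 genes were higher, with Spink8, Wfdc10 and Wfdc15b among them, and 41 were lower, with 0 of the inhibitors.

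The genes were then ordered by chromosome. By the RefSeq gene table of GRCm38.p6, 18 members lie on chromosome 2, 9 on chromosome 18, 3 on chromosome 11 and 1 each on chromosomes 4, 5, 7, 8 and 9. Between Wfdc5 and Wfdc3 on chromosome 2 the arrays measured 30 genes, 17 members and 13 others. Of the 17 members, 11 were at least 1.5-fold lower on the WT-HF array, and of the 13 others 1 was lower and 5 were higher. Over all genes 3.13% were lower and 5.38% higher there. In the stretch from Wfdc2 to Wfdc3, 13 of 14 measured genes were members, and 10 of the 13 were lower on the WT-HF array. On KO2, 8 of those 13 were at least 1.5-fold higher than on KO1, beside 9.69% of all genes.

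The 1 gene in that stretch under another name was Eppin, whose protein joins a WAP and a Kunitz domain and binds the sperm surface. It was at 4.41 and 7.52 on KO1 and KO2 and 4.27 on the WT-HF array, against 7.96 on the WT-LF array. Its values followed those of its neighbours Spint3, Wfdc6a and Wfdc16, low on KO1 and the WT-HF array. Within the same run the end genes Wfdc2 and Wfdc3 were under the median on all arrays, so position and level did not coincide throughout. Spint4 and Spint5 lie side by side with Wfdc13, yet on KO2 the difference from the WT-LF array was −0.72 for Wfdc13, −6.92 for Spint4 and −5.93 for Spint5.

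Seminal vesicle secretory genes, which sit in the same cluster between Wfdc15b and Slpi, ran differently. Among 6 of them, 5 were at least 1.5-fold higher on the WT-HF array and 0 were lower, while 2 were lower on both KO arrays. Svs5 was at 6.74 and 5.16 on KO1 and KO2 and 8.90 on the WT-HF array, against 7.61 on the WT-LF array. Slpi, an inhibitor of neutrophil elastase with WAP domains, was at 7.06 and 6.97 on KO1 and KO2 and 6.99 on the WT-HF array, against 6.84 on the WT-LF array. Sys1 and Pigt, cluster genes that encode no inhibitor, stayed within 0.33 of the WT-LF array on every array.

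**Figure D3:**
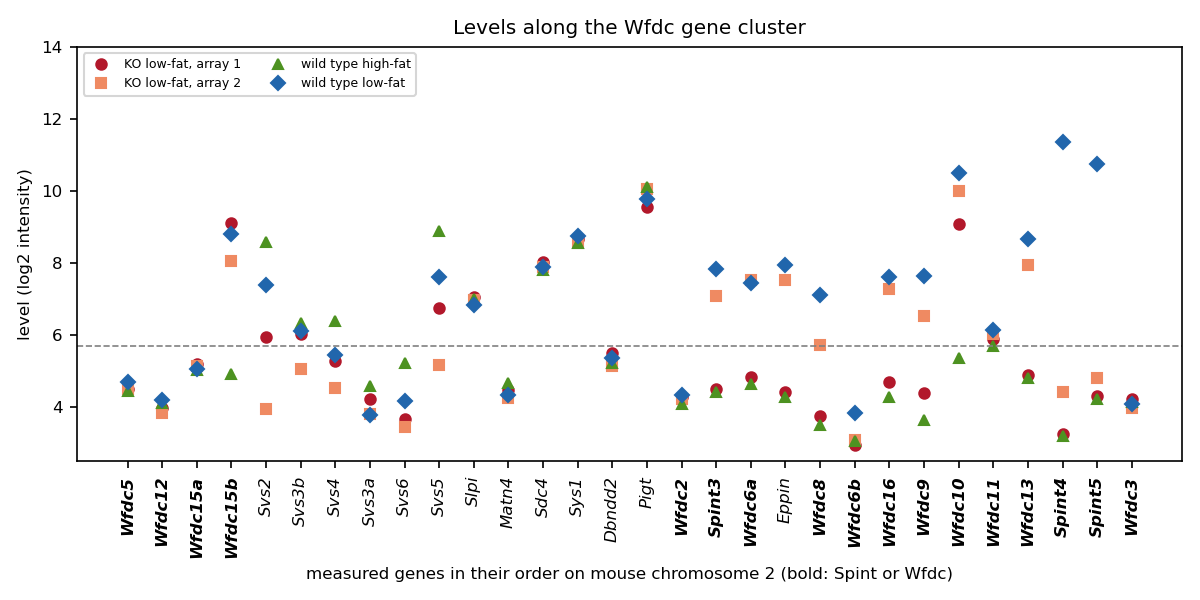
Level (log2 intensity, vertical axis) of the 30 measured genes from Wfdc5 to Wfdc3 in their order along chromosome 2, with members in bold, for KO1 and KO2, the WT-HF and the WT-LF array. The dashed line is the mean array median. At Spint3, Wfdc6a, Eppin and Wfdc16 KO1 lies with the WT-HF array and KO2 near the WT-LF array, and at Spint4 and Spint5 the WT-LF array stands alone.

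On chromosome 18 the epididymal genes Spink11 and Spink12 were the members above the median, 2 of 9. Some members overlap in the gene table: Wfdc9 with Wfdc10, Wfdc8 with Wfdc6b, and Spink10 with Spink7 and Spink13. Whether their probe sets share sequence was not tested. On KO1 the difference from the WT-LF array was −3.27 for Wfdc9 and −1.43 for Wfdc10.

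Markers of the epididymis outside these families differed between the same arrays as the inhibitors. Of 30 measured, 13 were at least 1.5-fold lower on both KO arrays and 0 higher, 19 were lower on the WT-HF array and 0 higher, and 10 were higher and 3 lower on KO2 than on KO1. Their summed intensity was 6747 and 5285 on KO1 and KO2 and 2468 on the WT-HF array, against 16876 on the WT-LF array. These sums lean on Cd52, the highest of the list on every array but the WT-LF one. Cd52 was at 12.35 and 11.02 on KO1 and KO2 and 10.14 on the WT-HF array, against 11.47. Clu was at 9.15 and 9.69 on KO1 and KO2 and 9.62 on the WT-HF array, against 10.24. The order of the 2 KO sums is thus that of Cd52, not that of most markers that differed between the KO arrays. In limma 2 of 14 tested were called lower on the KO arrays, the lipocalin gene Lcn5 (adjusted p = 0.0193) and the secretory protein gene Epp13 (adjusted p = 0.0292). Like Spint4 and Spint5 they passed the filter only through the WT-LF array, and without it the limma adjusted p was 0.276 for Lcn5 and 0.352 for Epp13.

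Single epididymal genes had values placed like those of single inhibitors, in pairs matched after the values were seen. Lcn5, at 4.89 and 5.45 on KO1 and KO2 and 4.32 on the WT-HF array, against 11.34 on the WT-LF array, was placed like Spint4. Cuzd1, at 4.60 and 9.26 on KO1 and KO2 and 4.32 on the WT-HF array, against 10.27, was placed like Wfdc13. Serpina1f, a serpin of the mouse epididymis, comes from the list of other epididymal inhibitors described below. It was at 11.87 and 8.33 on KO1 and KO2 and 7.28 on the WT-HF array, against 10.64, like Spink8. The markers under the median on all arrays were 13 of 30, among them Gpx5, Lcn8, Lcn9, Lcn10 and Adam28. How far the share of epididymal RNA in each sample entered the differences was not tested.

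Macrophage markers differed between the KO arrays alongside Wfdc17. On KO2, 15 of 20 were at least 1.5-fold higher than on KO1 and 0 lower, and Wfdc17 was at 10.22 on KO1 and 11.25 on KO2. On the WT-HF array 14 of 20 markers were at least 1.5-fold higher than on the WT-LF array and 0 lower, with Wfdc17 at 10.79 and 10.78. The summed intensity of the macrophage list was 11297 and 26218 on KO1 and KO2 and 30796 on the WT-HF array, against 13959 on the WT-LF array. Wfdc17 was thus higher beside the list on KO2, while between the diets the list differed and Wfdc17 was level. The part of macrophages in its values was not tested.

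Smooth muscle and mesothelial markers also differed between arrays. Of 10 smooth muscle markers, 6 were lower and 1 higher on KO2 than on KO1, and 4 were lower and 1 higher on the WT-HF array than on the WT-LF array. Of 10 mesothelial markers, 5 were higher and 3 lower on KO2, and 3 were lower on the WT-HF array. The epithelial keratin gene Krt18 was at 8.74 and 7.62 on KO1 and KO2 and 6.55 on the WT-HF array, against 8.11 on the WT-LF array. Krt8, Krt18 and Krt19 were the 3 lower ones in both comparisons. The mesothelial genes Upk3b, Upk1b and Gpm6a were among the 5 higher on KO2, and Upk1b was at 6.97 and 8.24 on KO1 and KO2 and 8.09 on the WT-HF array, against 8.47 on the WT-LF array. Between the KO arrays Spint1 and Spint2 differed in the direction of these keratins and against that of those 5 genes. The part of these cells in the values of Spint1 and Spint2 was not tested.

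**Figure D4:**
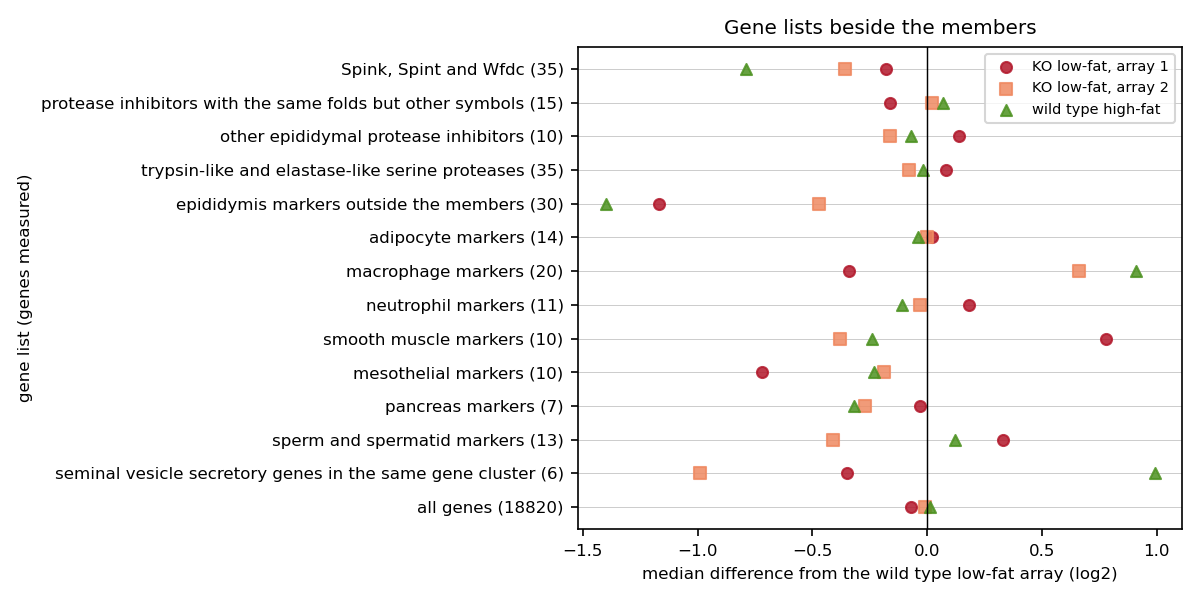
Median difference from the WT-LF array (log2, horizontal axis) of the 35 genes, of each gene list and of all genes, on KO1 and KO2 and the WT-HF array, with the number of genes measured in brackets. Epididymis markers lie at −1.17, −0.47 and −1.40, adipocyte markers at 0.02, 0.00 and −0.04.

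Other inhibitors and the proteases that such inhibitors act on were compared from lists. Of 15 measured genes that encode Kunitz, Kazal or WAP domains under other names, 0 of 12 tested passed limma in either direction against the WT-LF array (0 at an unadjusted p under 0.05), and 0 were 1.5-fold apart on both KO arrays. On the WT-HF array 3 were higher and 1 lower. App and Aplp2, Kunitz-bearing precursors of the amyloid family, were at 11.61 and 11.91 on KO1, 12.29 and 12.30 on KO2 and 12.18 and 12.37 on the WT-HF array, against 11.76 and 12.08 on the WT-LF array. The Kunitz inhibitor of tissue factor, Tfpi, was at 7.37 and 7.46 on KO1 and KO2 and 7.47 on the WT-HF array, against 7.76.

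Of the other epididymal inhibitors, a list of cystatins and serpins with Pebp4 and A2m, 7 of 10 measured were under the median on all arrays, and 0 of 3 tested passed limma (0 at an unadjusted p under 0.05). On the WT-HF array 1 was higher and 1 lower. Cst3, the broadly made cystatin C, was between 13.15 and 13.24 on all arrays.

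Among 35 measured serine proteases, 0 of 14 tested passed limma against the WT-LF array (0 at an unadjusted p under 0.05). By size 1 was higher on both KO arrays, and 2 were higher and 3 lower on the WT-HF array. Plau, the urokinase plasminogen activator, was at 9.58 and 9.55 on KO1 and KO2 and 9.58 on the WT-HF array, against 9.21 on the WT-LF array. The protease pair that Spint1 and Spint2 restrain was named after its values were seen. St14, matriptase, was at 6.94 and 6.63 on KO1 and KO2 and 6.50 on the WT-HF array, against 6.56 on the WT-LF array. Prss8, prostasin, was at 6.97 and 5.59 on KO1 and KO2 and 4.56 on the WT-HF array, against 5.86.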

How the data were processed

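RMA under R 2.15.0 is named in the submitters' processing notes, and the authors deposited linear intensity values, which ran between 5.71 and 20092. For the probe sets, genome build and annotation were not given in the sources used here. Log2 of these deposited intensities was taken without further scaling. Of 35556 probe sets, 21218 had 1 gene symbol, 1881 several and 12457 none listed, and per gene the one with the highest mean was kept (18820 genes). limma 3.58.1 (R 4.3.3) fitted 3 group means with eBayes, no trend, two-sided tests and Benjamini-Hochberg adjustment at 0.05 over 11292 genes at or above the 40th percentile of mean level, with 1 residual and 4.62 prior degrees of freedom. The script was tested on simulated data. Members, the 12 lists of 201 genes and the tests were chosen with earlier results of these data known. Set to be named were all members, Cd1d1 and, per list, the 6 genes with the highest means and any past the test. Not all of those 6 are printed for each list, and those printed were picked with their values known. Eppin, Slpi, Sys1, Pigt, St14, Prss8, Pebp4, A2m and genes given as under the median on all arrays were named after their values were seen. Alternatives covered scaling, probe set rule, filter, variance trend, thresholds and leaving out a KO array. Figures used matplotlib 3.10.9 (Python 3.11.15).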

Additional observations from a re-analysis of the deposited data

How the results depend on the processing

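The number of inhibitor genes that limma called lower in KO fat than on the WT-LF array, 2, was 1 after quantile normalisation (3 of all genes), 1 with probe sets averaged (3 of all genes) and 0 without the level filter (0 of all genes, against 5). After quantile normalisation and with probe sets averaged the inhibitor gene left was Spint5. Without the filter 18820 genes were tested, against 11292, and the SE changed too, for Spint5 to 0.31 from 0.36. The cause was not tested for any of these settings. The counts of 10 genes lower on both KO arrays and 20 lower on the WT-HF array stayed within 1.5 times under scaling, probe set rule, the 2-fold limit and the level filter. Each KO array alone gave 12 to 14 lower and 0 higher. Genes lower on KO2 than on KO1 numbered 3 at 2-fold, against 6. Leaving out a KO array turned the sign of Spink8 (0.38 on KO1 alone, −1.66 on KO2 alone) and Wfdc6a (−2.63 on KO1 alone, 0.08 on KO2 alone), each against a KO mean that was lower by more than 1.5-fold. Centring the arrays moved the split of all genes on both KO arrays to 239 higher and 83 lower, against 160 and 127, and between KO arrays to 1347 and 1134, against 1823 and 752. At 2-fold all genes gave 22 higher and 50 lower on both KO arrays, 306 and 219 on the WT-HF array, and 504 and 206 between the KO arrays, and with the level filter 66 were higher on both KO arrays. A single KO array gave 834 higher and 648 lower (KO2) or 637 and 660 (KO1). Counting genes 0.5 above the median, a limit chosen after seeing the data, gave 8, 11, 4 and 18 on KO1 and KO2, the WT-HF and the WT-LF array. No paired analysis was possible because the wild type groups have 1 array each. With 1 KO array left out no residual degrees of freedom remain, so no test was run. Low signal limits the genes under the array median.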

Other observations

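Gene groups of neighbouring tissues had values of their own. Of 13 measured sperm and spermatid genes, 7 were at least 1.5-fold lower and 1 higher on KO2 than on KO1, and 0 of 10 tested passed limma against the WT-LF array (0 in either direction at an unadjusted p under 0.05). Prm1, the sperm protamine gene, was at 9.98 and 7.36 on KO1 and KO2 and 8.63 on the WT-HF array, against 8.51 on the WT-LF array. Spink2, the acrosin inhibitor gene, did not share that order, at 5.36 and 4.97 on the KO arrays and 5.25 on the WT-HF array, against 7.45.

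Of 7 measured pancreas genes 5 were under the median on all arrays, as was Spink1. Of 11 measured neutrophil genes, 3 were higher and 3 lower on KO2 than on KO1. Lcn2, a neutrophil and epithelial lipocalin, was among the 3 higher, at 7.92 and 9.76 on KO1 and KO2. It was at 8.37 on the WT-HF array, against 7.81 on the WT-LF array. S100a9 was among the 3 lower, at 6.88 and 5.23 on KO1 and KO2. It was at 5.18 on the WT-HF array, against 5.16 on the WT-LF array. Wfdc21 was at 7.36 and 7.84 on KO1 and KO2 and 7.54 on the WT-HF array, against 7.44. Its KO arrays were not 1.5-fold apart.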
